A study of Mus musculus with 9 samples.

Results

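The genes described here are 34 interferon-stimulated genes, taken by symbol from a fixed list and found among the 27179 genes of the count matrix, with all 34 matched. By role they are 4 transcription factors, 2 nucleic acid sensors, 17 antiviral effectors, 2 genes of ISG15 conjugation, 6 interferon-induced GTPases and 3 genes of antigen processing. They were measured by bulk RNA-seq of polyadenylated RNA in lineage-negative, tdTomato-positive cells sorted from the fibrous tissue around an implant in the mouse tibia, harvested 2 weeks after surgery. The 4 control libraries came from Lepr-CreERT;Tdtomato mice. The 5 conditional knockout (cKO) libraries came from mice that carried, in addition, Grem1fl/fl. Tamoxifen, which activates the CreERT recombinase, was given to both groups, so the controls share the Cre, the tdTomato reporter and the drug. No group with Grem1fl/fl and no Cre was analysed here, and the labels used here give neither strain, age nor sex. Grem1 is deleted only where Cre, driven from Lepr, has been active, so the comparison concerns cells of the Lepr lineage and not a loss of Grem1 from the whole tissue.

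Grem1, which encodes a secreted antagonist of bone morphogenetic proteins, had normalized counts (reads divided by 1 size factor per library) of 736, 517, 676 and 356 in control libraries 1 to 4. It had 83.2, 46.4, 125, 133 and 60.8 in cKO libraries 1 to 5, all below the lowest control. Each library held between 43.5 and 87.2 M assigned reads, with 76.3 to 87.2 M in cKO libraries 1 to 4 and at most 53.4 M in the others. All 12 markers of LEPR-lineage stroma had reads in each of the 9 libraries, but their levels differed. Lepr had 18730, 5380, 40594 and 935 in the controls and 15785, 13110, 9822, 13845 and 1347.5 in the cKO libraries. Cxcl12 had 112680, 55047, 228860 and 18900 in the controls and 23905 to 93756 in the cKO libraries. Both were higher in controls 1 and 3 than in controls 2 and 4. The 12 markers summed were lower in controls 1 and 3 (5098700 and 4413000) than in controls 2 and 4 (6114600 and 5904700). In the cKO libraries they summed to 3422500 to 6170300. Col1a1, 1 of the 12, held much of that sum, with 1953100 to 2602700 in the controls. The libraries also carried markers of other cells. In the cKO group 10 of 10 skeletal muscle markers rose and 4 of 6 cartilage markers fell (limma, Benjamini-Hochberg adjusted p under 0.05). Of all genes tested, 4.61% rose and 2.87% fell by that test. It also called 2 of 10 endothelial and 1 of 14 macrophage markers lower, and 1 of the 12 stroma markers higher. In such bulk samples, fewer cells of a type and less RNA per cell cannot be told apart. The labels do not say that each library is a separate animal, so each p-value reflects variation among libraries only, and that variation may be technical.

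Type I interferons bind the receptor pair IFNAR1 and IFNAR2, and the kinases JAK1 and TYK2 then phosphorylate STAT2, which acts with IRF9 in the complex ISGF3. ISGF3 binds the interferon-stimulated response element, a repeat of GAAA-type half-sites, whereas interferon gamma acts through the gamma-activated site. Many of the genes these complexes switch on block viral replication, present antigen or restrain the response itself, and a low level of them can be maintained in uninfected tissue by tonic signalling.

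Promoter stretches with letters of the response element are shown for 8 members, chosen to cover ISG15, the effectors and the GTPases, because ISGF3 and its relatives find their genes through that element. RefSeq promoter windows, from 250 bases before to 50 bases after each start (build GRCm38.p6, whose coordinates do not carry over to the mm39 build of the counts), matched 27 of the 34 genes. Usp18, Zbp1, Iigp1, Parp14, Mx2, Oas2 and Mx1 had no entry. Each stretch below holds 60 bases, written 5′ to 3′ on the gene's own strand, and capitals mark matches to GAAANNGAA on either strand, so that a match on the opposite strand appears as its reverse complement.
Isg15: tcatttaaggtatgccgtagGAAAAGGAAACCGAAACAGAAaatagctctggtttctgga
Ifit1: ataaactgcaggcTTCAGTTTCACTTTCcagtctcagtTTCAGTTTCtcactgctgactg
Ifit3: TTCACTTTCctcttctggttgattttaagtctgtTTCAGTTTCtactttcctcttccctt
Oas3: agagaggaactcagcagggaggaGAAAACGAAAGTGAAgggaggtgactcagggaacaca
Irgm1: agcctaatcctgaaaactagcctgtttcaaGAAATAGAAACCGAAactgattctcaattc
Gbp2: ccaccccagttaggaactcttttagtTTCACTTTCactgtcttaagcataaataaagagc
Gbp3: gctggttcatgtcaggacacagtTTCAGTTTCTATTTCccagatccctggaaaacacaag
Gbp7: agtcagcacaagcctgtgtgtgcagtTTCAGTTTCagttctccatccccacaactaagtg

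The Isg15 stretch lies at chr4:156200857-156200916 on the minus strand and the Oas3 stretch at chr5:120777698-120777757 on the minus strand, each from 98 to 39 bases before the start. Those of Ifit1 (chr19:34640767-34640826, plus strand) and Ifit3 (chr19:34583374-34583433, plus strand) begin 122 and 155 bases before it. The Irgm1 stretch, chr11:48871421-48871480 on the minus strand, ends at the base before the start. The 3 guanylate-binding protein genes lie near one another on the plus strand of chromosome 3, at chr3:142620579-142620638 for Gbp2, chr3:142559977-142560036 for Gbp3 and chr3:142530258-142530317 for Gbp7. Isg15 and Ifit1 show 3 matches each, Ifit3, Oas3, Irgm1 and Gbp3 show 2, and Gbp2 and Gbp7 show 1.

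Of the 27 member genes with a promoter, 15 (55.6%) held GAAANNGAA in the 300-base window on either strand, against 9.76% of 27025 genes. They include, beside those shown, Stat2, Ifih1, Oas1a, Rsad2, Ifi44, Bst2 and Igtp. TTCNNNGAA, the letters of a gamma-activated site, stood in 9 of 27 (33.3%) against 9.55% of all genes: Irf1, Ifit2, Isg20, Oas1a, Ifi35, Bst2, Gbp7, Igtp and Psmb8. Of the 33 promoter windows of these genes, 4 held both motifs, and in 1 of them, Bst2, the matches overlapped. Such a match describes the letters and is not evidence of a bound site.

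None of the 33 members that could be tested passed the test of cKO against control. With limma on log2(normalized count + 1) and Benjamini-Hochberg adjustment over 15832 genes, 0 members had an adjusted p under 0.05, beside 7.48% of all genes. With edgeR on whole reads 0 passed, beside 4.96% of all genes, and with DESeq2 3 passed, beside 16.2%. These were Ifit2 and Irf9, higher in the cKO group (beside 9.98% of all genes), and Parp14, lower (beside 6.19%). At an unadjusted limma p under 0.05 there were 5, beside 26.9% of all genes: Ifit2, Irf9 and Usp18 with higher estimates in the cKO group, beside 14.7%, and Parp14 and Ifi44 with lower ones, beside 12.2%. The estimates were above 0 for 12 members and below 0 for 21, with a median log2 fold change of -0.18, beside -0.0039 over all genes tested. Leaving out both control libraries 1 and 3 turned that median to 0.25. Those were the controls with the highest member medians, 0.60 and 0.32 above the control mean (log2). Where both exceed controls 2 and 4, as for 22 of the 33 members, leaving them out must raise the estimate. Such fits are therefore not an independent check. Groups did not overlap for 1 member, beside 11.4% of all genes: Ifit2, with every cKO library above the controls, beside 6.82%.

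How firmly a change can be limited differed among the members. For 12 of the 33 the 95% interval of the fold change lay within 2-fold either way, and for 21 it reached past 2-fold in at least 1 direction. The tight ones include Irgm1, a GTPase of autophagy and vesicle defence, with a log2 fold change of 0.17 (95% interval -0.28 to 0.62), and Tap1, a subunit of the peptide transporter for class I antigens, at -0.09 (-0.56 to 0.37). The wide ones include Oas2, at 0.28 (-4.31 to 4.87), and Mx2, at -1.80 (-5.99 to 2.39).

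**Figure D1:**
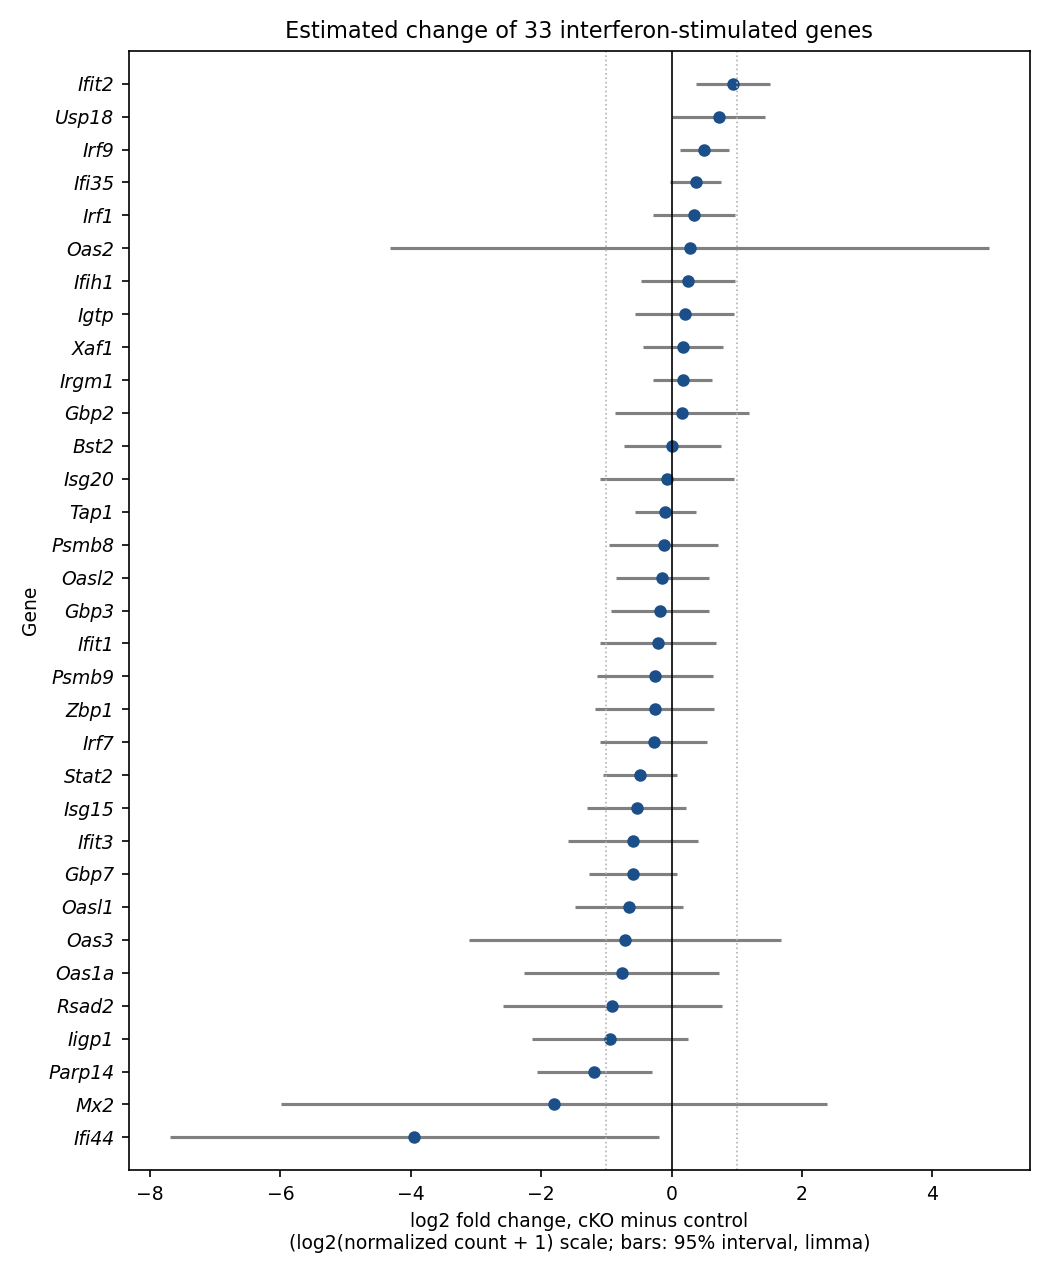
Points give the log2 fold change (cKO minus control, on the log2(normalized count + 1) scale) of each of the 33 tested members, with bars for limma's 95% interval, and dotted lines mark a 2-fold difference either way. Ifit2 is at the top with 0.94 and Ifi44 at the bottom with -3.95, and 21 of the bars reach past a dotted line.

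Among the transcription factors, 0 of 4 passed limma's test. Irf9, the DNA-binding subunit of ISGF3, had normalized counts of 1228, 1446, 1716 and 1543 in the controls. In the cKO libraries it had 2476, 2596.5, 1995, 1825 and 1707. Only cKO library 5 lay below the highest control, by a few counts, so the groups overlapped at that point alone. The log2 fold change was 0.51 (SE 0.17, limma adjusted p = 0.0924), and DESeq2 gave an adjusted p of 0.0486. The authors' deposited table lists an adjusted p of 0.0395 for Irf9.

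Stat2, the partner of Irf9 in ISGF3, had 2626 (control 1), 1713, 1132 and 1237 in the controls and 1363, 1079, 1029, 914 and 1321 in the cKO libraries. Control 1 stood above the rest and the groups overlapped; the log2 fold change was -0.49 (limma adjusted p = 0.247). Irf1, a factor induced most directly by interferon gamma, had 3778, 1552, 2427 and 1770 in the controls. Its cKO values were 3079, 3265, 3765 (library 3), 2620 and 1866, within the range of the controls. Irf7, which amplifies type I interferon production, ranged from 628 to 1936 in the controls and from 498 to 1284 in the cKO libraries, with a log2 fold change of -0.28 (limma adjusted p = 0.663).

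Both nucleic acid sensors were present in all 9 libraries, and 0 of 2 passed. Ifih1, which encodes the double-stranded RNA sensor MDA5, had 1061, 549, 910 and 662 in the controls and 1099, 1052, 942, 1307 and 460 in the cKO libraries. The lowest and the highest value were both cKO libraries, 5 and 4. Zbp1, a sensor of Z-form nucleic acid that can trigger necroptosis, had 295, 161, 325 and 300 in the controls and 109, 363, 255, 204 and 241 in the cKO libraries. Its log2 fold change was -0.26 with a 95% interval from -1.17 to 0.66, so neither a fall nor a rise of 1.5-fold lies outside it.

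The antiviral effectors held both the strongest upward and the strongest downward estimates among the members, and 0 of 16 tested passed limma's test. Ifit2, which binds viral and cellular RNA and restrains translation, had 769, 712, 919 and 866 in the controls. It had 2584, 1002, 1432, 1791 and 1408 in the cKO libraries. Every cKO library lay above every control, with cKO library 2 nearest to them. The log2 fold change was 0.94 (SE 0.25, 95% interval 0.38 to 1.51), a 1.92-fold higher level, with a limma adjusted p of 0.0509. The adjusted p was 0.0574 with edgeR and 0.00556 with DESeq2, and the authors' deposited table lists 0.0046. Leaving out 1 library at a time, the limma adjusted p ranged from 0.0324 to 0.119. Ifit2 passed without cKO library 2 or without cKO library 5, fits in which 669 and 3562 of all genes passed.

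Neither of the other 2 members of that family in the list passed the test. Ifit1, which binds RNA lacking cap methylation, ranged from 430 to 1300 in the controls and from 378 to 1126 in the cKO libraries, with a log2 fold change of -0.21 (limma adjusted p = 0.764). Ifit3 ranged from 509 to 1698 in the controls and from 294 to 1059 in the cKO libraries, at -0.59 (limma adjusted p = 0.429). Ifit3 shares 51.2% of its 50-base words with its copy Ifit3b, so its reads cannot be assigned with certainty.

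Parp14, a mono-ADP-ribosyltransferase, had 2278, 538, 1314 and 771 in the controls. It had 508, 630, 372, 512 and 354 in the cKO libraries. Control libraries 1 and 3 stood well above the others, and control 2 lay inside the range of the cKO group. The log2 fold change was -1.18 (SE 0.40), with an adjusted p of 0.0907 with limma and 0.013 with DESeq2, and 0.0118 in the authors' deposited table. Without controls 1 and 3 it was -0.47 (limma adjusted p = 0.464).

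Ifi44, a gene induced by type I interferon, had 1174, 38.6, 612 and 86.6 in the controls and 0, 114, 12.2, 1.45 and 172 in the cKO libraries. Controls 1 and 3 again held the high values, and cKO libraries 2 and 5 lay above controls 2 and 4. The log2 fold change was -3.95 with a 95% interval from -7.70 to -0.19 (limma adjusted p = 0.165), and without controls 1 and 3 it was -2.02 (adjusted p = 0.616). Rsad2, which encodes viperin, also had controls 1 and 3 above controls 2 and 4, with 557, 121, 1163 and 151, and had 153, 366, 70.5, 122 and 341 in the cKO libraries.

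The 3 effectors most abundant per length were Bst2, Ifi35 and Isg20, and none passed. Bst2, or tetherin, which holds budding virions at the cell surface, had the highest mean level per length of all 34 genes, at 2735.5 normalized counts per kilobase of exon. It had 3716, 1086, 2857 and 1470 in the controls and 2053, 2488, 1869, 1611 and 2350 in the cKO libraries. The cKO values all lay between the lowest and the highest control, with a log2 fold change of 0.01 (95% interval -0.73 to 0.76), a sign that TMM scaling, at -0.0097, and the count tests turned. Ifi35 had 1627, 1243, 1563 and 1526 in the controls and 1871, 1811, 2348, 2289 and 1408 in the cKO libraries. Its log2 fold change was 0.37 (limma adjusted p = 0.211). Ifi35 passed, at 0.0453, without cKO library 5, a fit in which 3562 of all genes passed, against 1184 with every library. Isg20, a 3′ exonuclease, had 1058, 1653, 1156 and 2079 in the controls and 1281, 1464, 480, 1638 and 3221 in the cKO libraries, the last above all others.

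The oligoadenylate synthetases, which make the activator of RNase L, and the Mx dynamin-like GTPases include the least abundant members per length. Oas2 averaged 9.49 and Mx1 6.51 normalized counts per kilobase. Oas2 had 0, 0, 35.5 and 22.4 in the controls and 51.5, 229, 0, 0 and 0 in the cKO libraries. Mx2 had 208, 0, 51.7 and 13.97 in the controls and 98.6, 0, 25.8, 1.45 and 0 in the cKO libraries. Both were at 0 in some libraries of each group, and no direction can be read. Mx1, the 1 member that did not pass the filter of 10 normalized counts in 4 libraries, had 105 and 93.6 in controls 2 and 4, from 143 reads, and 0 in the other 7 libraries.

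Oas3 had 200 (control 1), 66.2, 209 and 137 in the controls and 22.1, 532, 10.8, 124 and 254 in the cKO libraries, with cKO library 2 the highest. Oas1a, at 101 to 335 in the controls and 55.9 to 495 in the cKO libraries, shares 57.6% of its 50-base words with Oas1g and Oas1b. Oasl1 and Oasl2, relatives of the synthetases, had log2 fold changes of -0.65 (limma adjusted p = 0.288) and -0.14 (0.806). Xaf1, which binds the apoptosis inhibitor XIAP, ranged from 414 to 920 in the controls and from 600 to 810.3 in the cKO libraries, at 0.17 (limma adjusted p = 0.720).

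ISG15 is a ubiquitin-like modifier and USP18 the protease that removes it, which also blocks the type I receptor. Isg15 had 978, 425, 384 and 728 in the controls and 385, 549, 365, 283 and 489 in the cKO libraries, and controls 1 and 4 lay above every cKO library while controls 2 and 3 lay within their range. Usp18 had 624, 235, 509 and 284 in the controls and 574, 549, 688, 809 and 566 in the cKO libraries, of which 3 and 4 exceeded every control. The log2 fold changes were -0.53 (limma adjusted p = 0.343) and 0.72 (0.183), with 95% intervals of -1.29 to 0.22 and 0.00385 to 1.44.

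**Figure D2:**
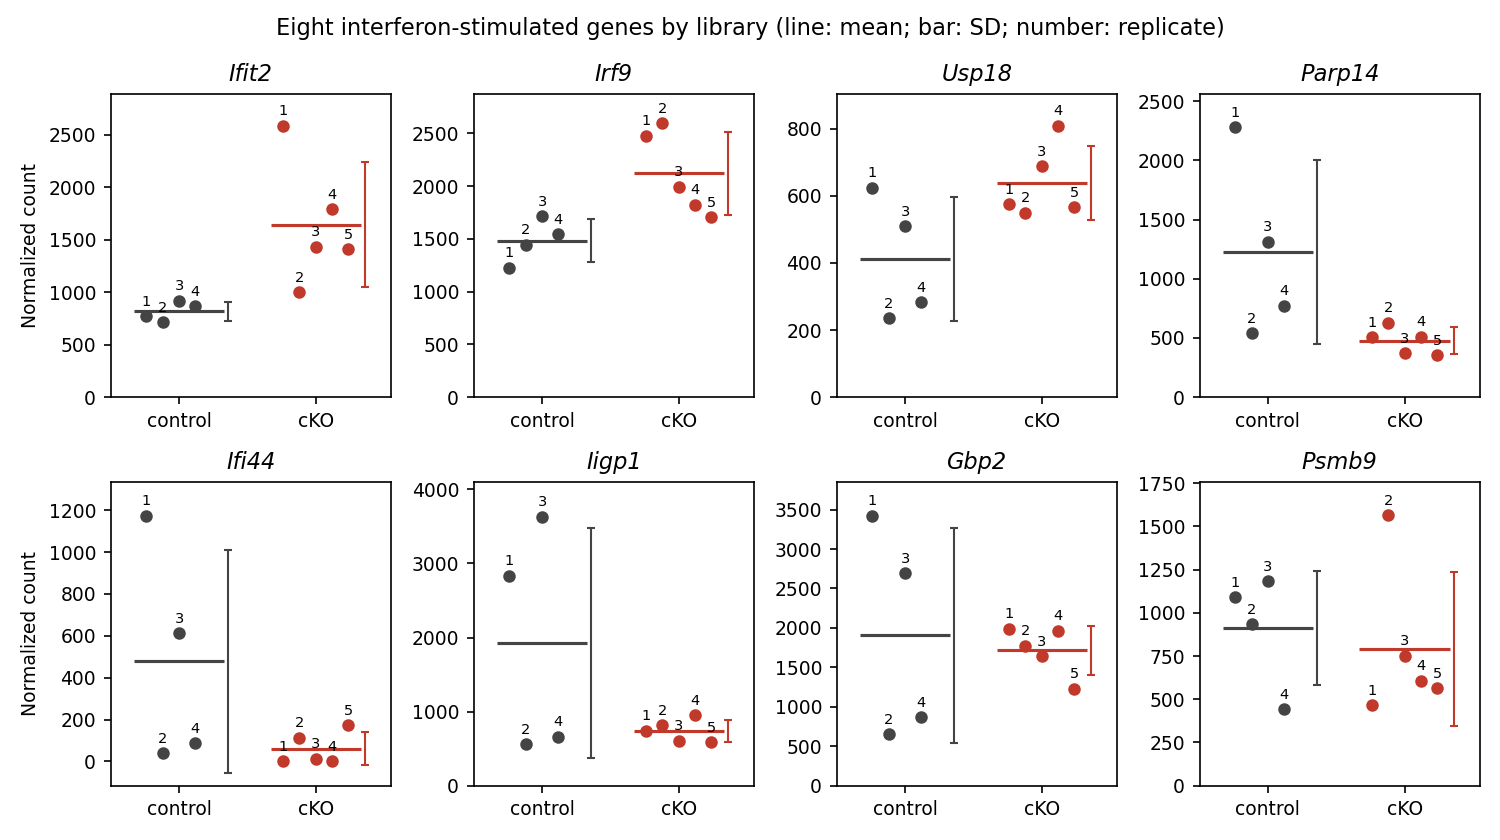
Each point is the normalized count of 1 library (4 control, 5 cKO) for 8 members, with the bar at the group mean and whiskers of 1 SD, and each panel has its own linear axis. Ifit2 is the panel without overlap, while in Usp18, Parp14, Ifi44, Iigp1, Gbp2 and Psmb9 controls 1 and 3 both stand above controls 2 and 4.

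The interferon-induced GTPases attack the vacuoles of intracellular pathogens, and 0 of 6 passed. Iigp1 had 2836, 563, 3633 and 662 in the controls and 742, 815, 605, 948 and 583 in the cKO libraries. Controls 1 and 3 lay above every cKO library, and controls 2 and 4 lay within or below their range. Its log2 fold change was -0.95 (limma adjusted p = 0.29, DESeq2 0.0533), and without controls 1 and 3 it was 0.25. Gbp2 had 3421, 650, 2696 and 869 in the controls and 1989, 1777, 1638, 1966 and 1227 in the cKO libraries, so that the cKO values fell in the gap of the controls. Its log2 fold change was 0.17 (limma adjusted p = 0.847) and 1.17 without controls 1 and 3 (adjusted p = 0.0578).

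Gbp7 had 2079, 981, 2320 and 1954 in the controls and 1137, 903, 816, 1413 and 1740 in the cKO libraries, with a log2 fold change of -0.59 (limma adjusted p = 0.238). Irgm1 had 3307.5, 1625, 2552 and 2005 in the controls and 2843, 2883, 2729, 2275 and 2224 in the cKO libraries. For all 6 GTPases, Gbp3 and Igtp included, controls 1 and 3 were both above controls 2 and 4.

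The antigen-processing members are Tap1 and the immunoproteasome subunits Psmb8 and Psmb9, which replace constitutive subunits of the proteasome, and 0 of 3 passed. Psmb8 had 3272, 1585, 3002 and 1383 in the controls and 1778, 4109.5, 2233, 1417 and 1322 in the cKO libraries. Psmb9 had 1092, 933, 1183 and 443 in the controls and 464, 1565.5, 753, 608 and 565 in the cKO libraries. In both, cKO library 2 was the highest of the 9. Tap1 had 1828, 1585, 3377 and 1863 in the controls and 2174, 1783, 2006, 1887 and 1863 in the cKO libraries, with control 3 alone above the rest. Psmb9 and Tap1 lie close together, and 15.7% of Psmb9's exon length overlaps Tap1, so reads there cannot be told apart without a stated strand setting.

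**Figure D3:**
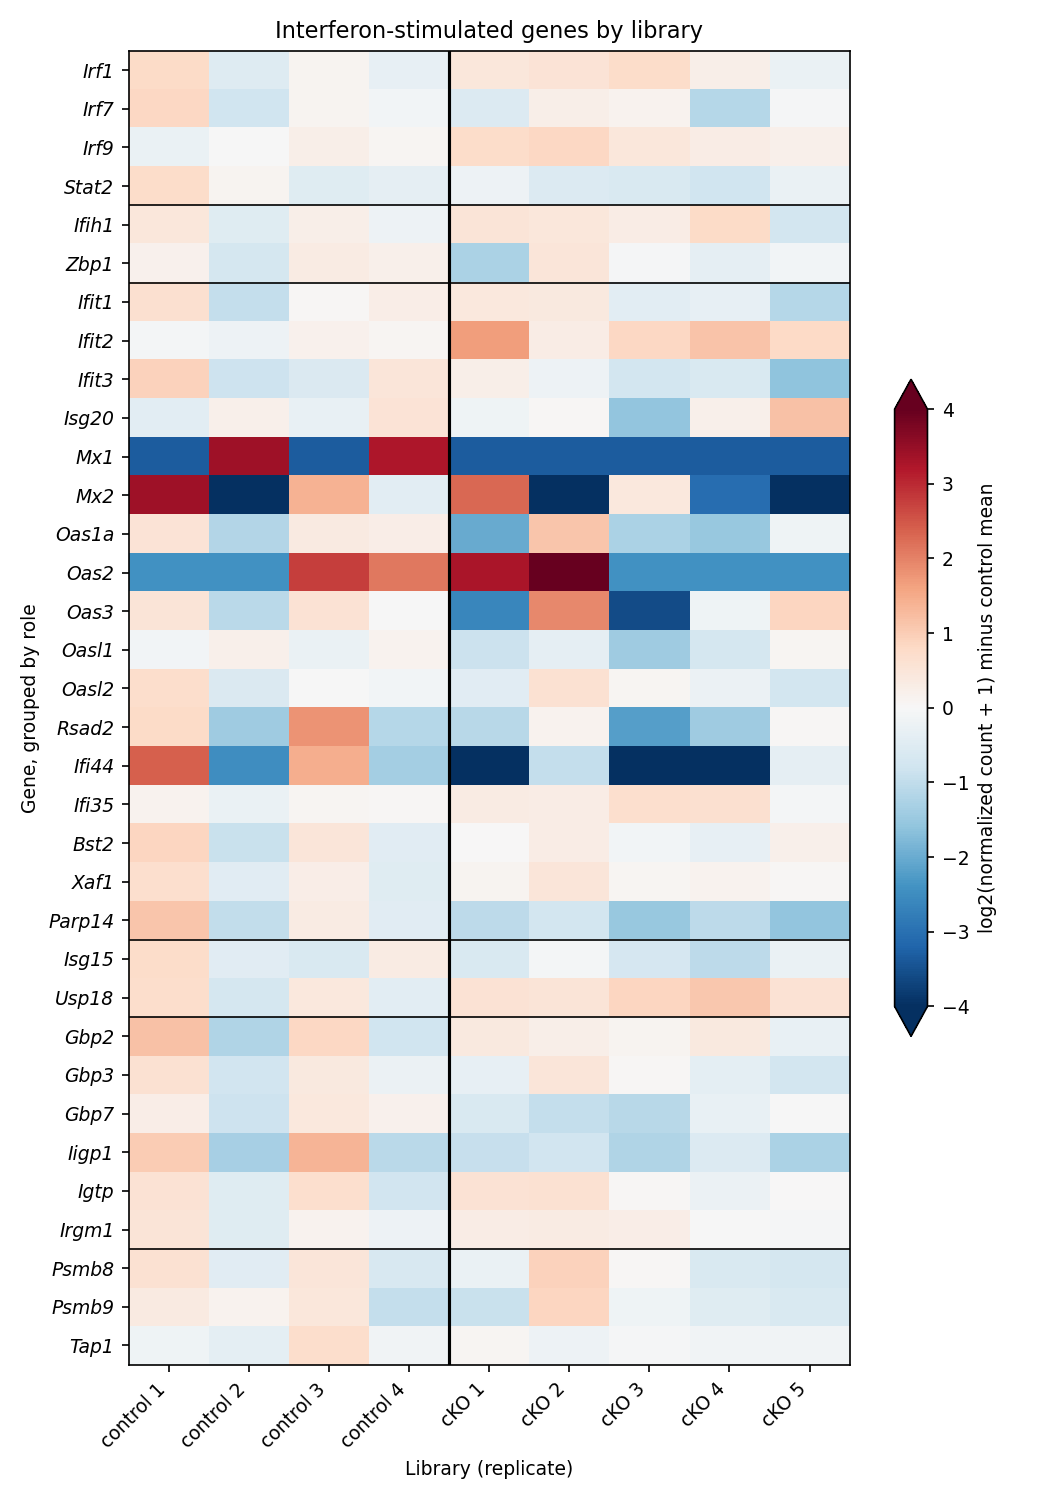
Rows are the 34 members by role and columns the 9 libraries, and colour gives each gene's log2(normalized count + 1) minus its control mean, capped at 4 either way. Of the 33 tested members (Mx1 not counted), 27, 27 and 23 are above the control mean in controls 1 and 3 and cKO library 2. In control 2 it is 4, the fewest.

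The spread between libraries of 1 group was wide for the members, above all in the controls. The median SD of log2 values over the 4 controls was 0.639 for the members and 0.349 for all genes tested, and over the 5 cKO libraries it was 0.503 and 0.459. Controls 1 and 3 were both above controls 2 and 4 for 22 of 33 members, beside 23.6% of all genes, and both below for 2, beside 23.8%. By role this held for 6 of 6 GTPases, 10 of 16 effectors, 2 of 4 transcription factors, 1 of 2 sensors, 1 of 2 genes of ISG15 conjugation and 2 of 3 genes of antigen processing. The highest control was library 1 for 20 members, beside 25.4% of all genes, and library 3 for 11, beside 26.2%. The lowest control was library 2 for 23 members, beside 23.2%. Among the cKO libraries, library 2 was the highest for 17 of 33, beside 21% of all genes. Both patterns held together for 13 of 33, beside 5.31% of all genes.

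The median member stood 0.60 above its control mean in control 1 and 0.32 above it in control 3, and 0.69 and 0.19 below it in controls 2 and 4 (log2). In the cKO libraries the same median was -0.16, 0.30, -0.04, -0.33 and -0.16. The 34 genes summed to 50781, 23790, 43422 and 29415 normalized counts in the controls and to 35327, 40723, 32498, 31492 and 30515 in the cKO libraries. The cKO sums all fell between the lowest and the highest control.

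Markers of other cell types also differed between these libraries, not always in the members' direction. The 10 endothelial markers summed to 150210 and 178410 in controls 1 and 3 and to 7144 and 12584 in controls 2 and 4, and from 6063, in cKO library 2, to 10862 in the cKO libraries; 9 of 10 had reads in all 9 libraries. Pecam1, the endothelial adhesion molecule CD31, had 38993, 1242 (control 2), 47308 and 2627 in the controls and at most 1589 in the cKO libraries. The 14 macrophage markers summed to 33856, 69875, 51052 and 32165 in the controls and to 9707, 130280, 6290, 12247 and 20179 in the cKO libraries, and 8 of 14 had reads in all libraries. Their highest control was library 2, where the members were lowest, and their highest cKO library was 2, where the members' median was highest in that group. The 8 neutrophil markers had the same highest libraries, with 578130 in control 2 and 753130 in cKO library 2. Csf1r, the macrophage growth factor receptor, had between 847 and 1459 in the controls, 2922 in cKO library 2 and between 0.678 and 436 in the other cKO libraries.

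The 4 markers of plasmacytoid dendritic cells, the main producers of type I interferon, summed to 322, 74.5, 537 and 50.3 in the controls. In the cKO libraries they summed to 235, 1063, 281, 158 and 66.1, and 1 of 4 had reads in all libraries. Their defining marker Siglech had 159 in each of controls 1 and 3, 193 in cKO library 2 and 0 in the other 6 libraries. The same 3 libraries were the ones with reads of Xist, the transcript of the inactive X chromosome, at 870, 2192 and 2206. The T cell marker Cd3e was at 0 in 4 libraries and at most 56.0 in the rest. Without controls 1 and 3, which hold the endothelial signal and 2 of the 3 libraries with Xist, limma passed 0 of 33 members, beside 2.13% of all genes. In that fit 8 members had an unadjusted p under 0.05, beside 20.3% of all genes, and 10 members changed sign. The part of these markers in the members' values was not tested beyond that.

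**Figure D4:**
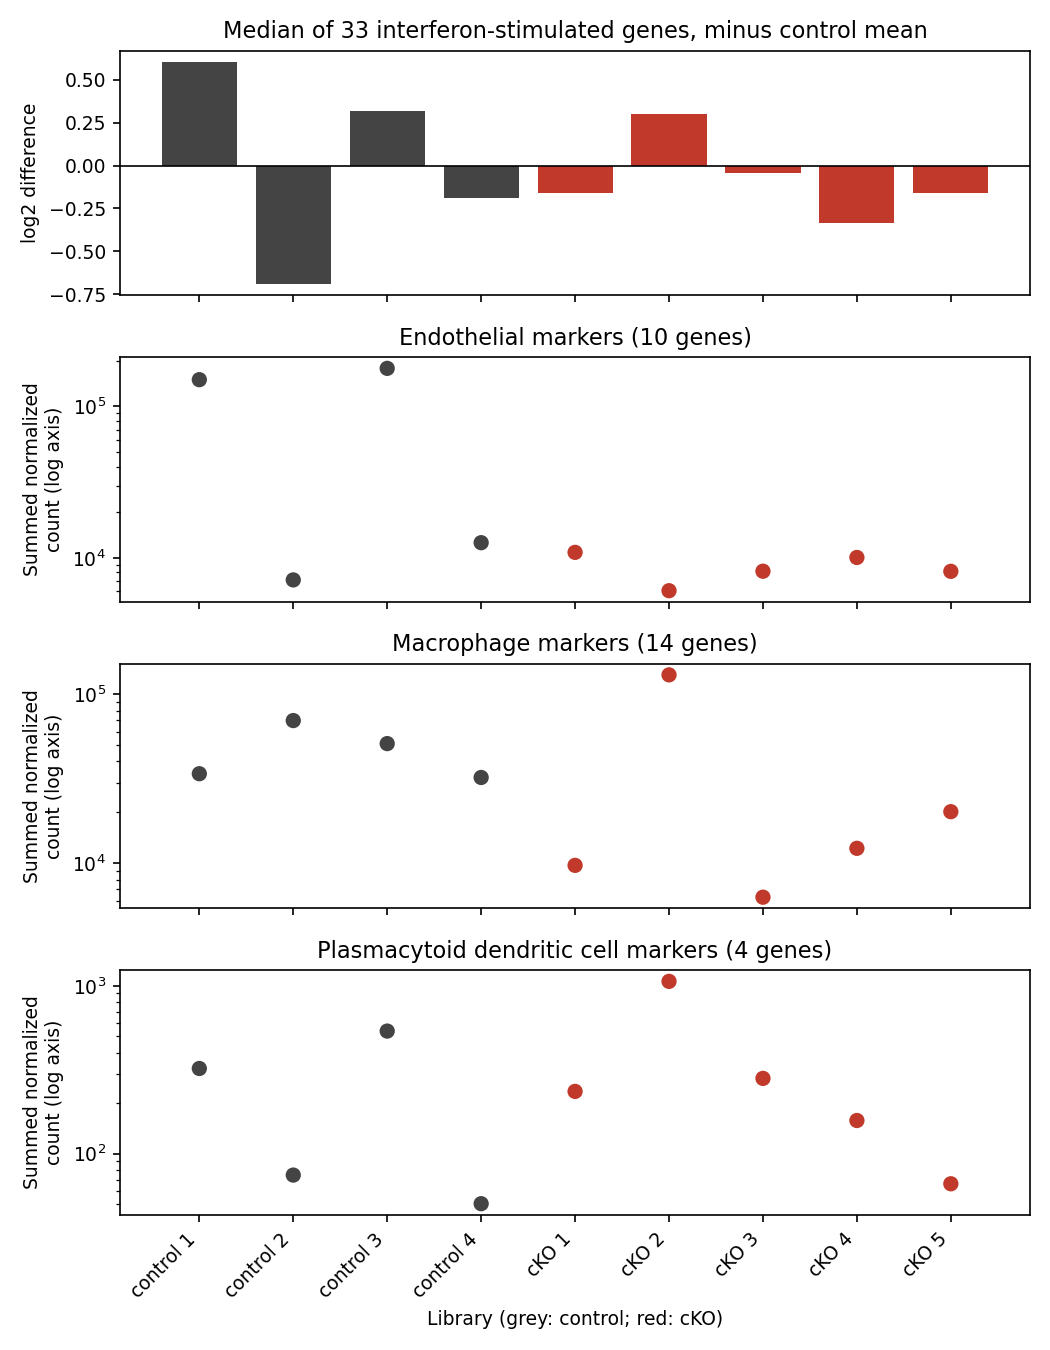
For each of the 9 libraries the panels show the members' median log2 difference from the control mean and the summed normalized counts of marker lists (log axis). Controls 1 and 3 carry endothelial sums of 150210 and 178410 where no other library exceeds 12584, and cKO library 2 carries the highest macrophage sum, 130280.

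Of 151 other genes of the interferon pathway, 126 could be tested and 7 passed limma's test, 5 higher and 2 lower in the cKO group (5.56%, beside 7.48% of all genes, of which 4.61% higher and 2.87% lower). The interferon genes themselves had few reads or none. Of 21 ligand genes, 18 had no read in any library, where 3 reads correspond to 2.02 to 4.19 normalized counts, and the other 3 had 52 reads in total. Ifng accounted for 26 of them, in 2 control libraries, and Ifnk for 16, in cKO library 4. None of the 6 receptor genes passed. Ifngr1, the ligand-binding chain for interferon gamma, had 11934, 6710, 11003 and 6056 in the controls and 18849, 16037, 17366, 20197 and 8597 (library 5) in the cKO libraries, with a log2 fold change of 0.86 (limma adjusted p = 0.0888). Ifnlr1, a chain of the lambda receptor, had at most 149 (control 2) and was at 0 in 3 cKO libraries, with a log2 fold change of -4.46 (limma adjusted p = 0.0929). Its group means were 114 in the controls and 26.6 in the cKO group. The count tests gave -2.12 with edgeR (adjusted p = 0.485) and -2.11 with DESeq2 (0.485).

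Among the 10 signalling genes 0 passed, and the nearest was Tyk2, the kinase bound to IFNAR1. It had 2012, 1894, 2308 and 2621 in the controls and 1442, 565, 1462, 1296 and 697 in the cKO libraries. Every cKO library lay below every control; the log2 fold change was -1.11 with a limma adjusted p of 0.0534. Irf2, an antagonist of Irf1, was at 0.54 (limma adjusted p = 0.16). Among 10 tested genes of innate sensing 0 passed, and Sting1, the adaptor for cyclic dinucleotides, was at -1.18 (limma adjusted p = 0.0885) and Mavs, the adaptor of the RNA helicase sensors, at 0.61 (0.188). For Sting1, controls 1 and 3 held 3267 and 4149 and its controls 2 and 4 held 1527 and 1530.

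Of 12 negative regulators 1 passed (8.33%, beside 7.48% of all genes). Pias1, a SUMO ligase that restrains interferon signalling, rose, with a log2 fold change of 0.57 (SE 0.15, limma adjusted p = 0.0489). Of 70 further interferon-stimulated genes tested, 4 rose and 2 fell (8.57%, beside 7.48% of all genes). Trim21, an intracellular antibody receptor and ubiquitin ligase, had 300 (control 1), 321, 273 and 275 in the controls and 948, 945, 717, 619 and 616 in the cKO libraries. All cKO values lay above all controls, and the log2 fold change was 1.37 (SE 0.23, limma adjusted p = 0.0107). It passed in each of the 9 fits that left out 1 library.

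Ifi27l2a, another gene induced by type I interferon, had 413, 364, 334 and 687 in the controls and 1418, 2542, 1040, 1617 and 795 in the cKO libraries, without overlap (log2 fold change 1.67, limma adjusted p = 0.0231). Ifi205 and Ifi207, members of the family of p200 proteins that share 18.6% and 7.29% of their 50-base words with other genes, rose by 1.76 and 2.37 on the log2 scale (limma adjusted p = 0.0355 and 0.0382), with overlapping groups for Ifi207. Tgtp2 fell by 2.03 (limma adjusted p = 0.0379), but 86.6% of its 50-base words are shared with transcripts of other genes, its copy Tgtp1 among them. Mlkl, the pore-forming effector of necroptosis, had 712, 771, 1089 and 771 in the controls and 414, 457, 355, 393 and 604 in the cKO libraries, with a log2 fold change of -0.91 (limma adjusted p = 0.0456). When 1 library was left out, the number of passing fits of 9 was 4 for Ifi27l2a, 3 for Ifi205, 2 for Ifi207 and Tgtp2, and 1 for Pias1 and Mlkl. Without controls 1 and 3 none of the 7 passed, and each kept its sign. The log2 fold change of Trim21 was then 1.34 (limma adjusted p = 0.0683), that of Ifi207 2.22, of Ifi27l2a 1.45, of Ifi205 1.26, of Pias1 0.54, of Mlkl -0.82 and of Tgtp2 -1.45 (limma adjusted p from 0.146 to 0.241 for these 6). Controls 1 and 3 were both above controls 2 and 4 for 70 of the 126 tested pathway genes, beside the 23.6% given above.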

How the data were processed

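RNA-seq was analysed in 9 libraries, 4 control and 5 cKO, grouped and numbered by their titles. The authors deposited normalized counts (a signal, each library's gene counts scaled by a single size factor) for 27179 Entrez gene IDs. STAR, featureCounts, DESeq2 and the build mm39 are named, without versions, per the submitters' processing notes. The annotation, the strand setting and the handling of multiply mapped reads were not given in the sources used here. A second table deposited by the authors holds, per the file headers, mean normalized counts (signal), log2 fold changes and their errors, a test statistic (score), and p-values and adjusted p-values, quoted only as the authors' own.

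Symbols came from an NCBI gene table (GRCm38.p6, names only): 25275 IDs matched, and the 1904 without a symbol held 0.45% to 0.988% of counts and stayed in the tests. Values in each library were whole multiples of 1 step (tolerance 0.01 of a read, at least 99.99% of values), which recovered whole reads. Depth was 44.8 to 53.4 M in controls, 76.3 to 87.2 M in cKO libraries 1 to 4 and 43.5 M in cKO library 5. IDs without a symbol held 0.702% to 0.988% of counts in cKO libraries 1 to 4 and 0.45% to 0.511% in the others. The higher depth of cKO libraries 1 to 4 goes with genotype, and its part in the results was not tested. Floors of 3 reads cover counting error only.

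The main test was limma 3.58.1 (R 4.3.3; trend) on log2(normalized count + 1), genotype only, for genes with at least 10 in at least 4 libraries (15832), two-sided, Benjamini-Hochberg, threshold 0.05. On that scale the change of a gene that is low in every library is understated, while a gene at 0 in some libraries can have an estimate beyond the ratio of its group means. Alternatives were edgeR 4.0.16 (quasi-likelihood) and DESeq2 1.42.0 on whole reads, which call 786 and 2539 genes, and other pseudocounts, filters, TMM scaling, a replicate block and left-out libraries. The test was checked on simulated data with large changes and the same spread setting for every gene. That check does not cover small changes or the members' wide spread between libraries. Level per length used exon lengths of GENCODE M21, as did the shares of 50-base words found in transcripts of other genes.

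The members and all lists were chosen with earlier results of these data known. Values of every library are written out for the 3 members of each role with the highest mean normalized count and the 3 tested members with the largest log2 range within a group. Ifit2, Parp14, Rsad2, Oas3, Iigp1 and Mx1, and among other genes Cd74, were added after their values were seen, as was the mention of H2-Aa and H2-Eb1. Of each pathway list, genes past the test are named (up to 4 in each direction), and in a list without any, the 2 with the lowest p.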

Additional observations from a re-analysis of the deposited data

Results flagged for a closer look

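Among 68 groups of member values (each gene in each genotype), 5 held 1 library far from the others by Dixon's 95% criterion; chance alone flags about 1 group in 20. Of these, 3 were high values of cKO library 2: Oas2 at 229 normalized counts, Xaf1 at 810.3 and Psmb9 at 1565.5. Mx2 was high in cKO library 1, at 98.6. Tap1 was high in control 3, at 3377.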

How the results depend on the processing

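The calls rest on few libraries. Over all genes limma passed 1184; edgeR passed 786, DESeq2 2539, the replicate block 2715, the fit without controls 1 and 3 passed 338, and cKO library 5 alone against the controls (its spread assumed like that of the others) 83; leaving out 1 library gave 377 to 3562. Of the members 0 passed (5 at an unadjusted limma p under 0.05, beside 26.9% of all genes). With a pseudocount of 5, 1 passed (beside 1290 of all genes), with a filter of 50, 1 (beside 1170), and with DESeq2, 3 (beside 2539). Leaving out 1 library gave 0 to 3, with 1 without cKO library 2 (beside 669 of all genes) and 3 without cKO library 5 (beside 3562). Of the other pathway genes 7 passed. The count was 3 with edgeR, 16 with DESeq2, 16 with the replicate block and 0 without controls 1 and 3. In that last fit 24 of 126 had an unadjusted limma p under 0.05, beside 20.3% of all genes. Leaving out 1 library gave 1 to 15, the 15 without cKO library 5 (beside 3562 of all genes). The members' median of -0.18 became 0.25 without controls 1 and 3, the controls in which the members' median was highest. It ranged from -0.44 to -0.078 leaving out 1 library.

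Shared replicate numbers did not pair the libraries (correlations of deviations from 0.0705 to -0.0109), and not every library correlated best with its own number; the replicate block passed 1 member (Ifit2) and gave Ifit1 0.017, Oasl2 0.0066, Bst2 -0.035 and Psmb8 0.025. The block takes cKO library 5, which has no partner, out of the contrast, and these estimates equal those without that library. Estimates that changed sign, none past the test in either fit, were as follows (log2). TMM: Bst2 -0.0097. With edgeR: Isg20 0.10, Oas3 0.28, Bst2 -0.15 and Gbp2 -0.17. With DESeq2: Isg20 0.12, Oas3 0.30, Bst2 -0.14 and Gbp2 -0.15. Without controls 1 and 3: Irf7 0.19, Ifit1 0.13, Mx2 0.58, Oasl2 0.20, Rsad2 0.37, Gbp3 0.32, Iigp1 0.25, Psmb8 0.42, Psmb9 0.15 and Tap1 0.17. With cKO library 5 alone: Irf1 -0.26, Ifih1 -0.74, Isg20 1.17, Oas2 -2.43, Oas3 0.86, Oasl1 0.089, Rsad2 0.046, Ifi35 -0.073, Gbp2 -0.30, Irgm1 -0.042, Irf2 -0.089 and Mavs -0.23. Leaving out 1 library, the ranges that cross 0 were -0.53 to 0.017 for Ifit1, -0.38 to 0.31 for Isg20, -1.01 to 1.20 for Oas2, -1.37 to 0.0015 for Oas3, -0.34 to 0.094 for Oasl2, -0.29 to 0.31 for Bst2, -0.24 to 0.56 for Gbp2, -0.44 to 0.019 for Gbp3, -0.054 to 0.43 for Igtp, -0.38 to 0.081 for Psmb8 and -0.22 to 0.14 for Tap1. The cause was not tested. Mx1, Mx2, Oas2 and the ligand genes have no reads in some libraries, at depths where 3 reads are 2.02 to 4.19 normalized counts.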

Other observations

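Class II molecules display peptides to helper T cells, and the values of 2 of their genes are given here. Cd74, the invariant chain, had 4502, 635, 6109 and 580 normalized counts in the controls and 622, 7825, 58.3, 726 and 1159.7 in the cKO libraries, with controls 1 and 3 and cKO library 2 the 3 highest. H2-Ab1, a class II beta chain, had 2976.5, 2906.5, 2854 and 2405 in the controls and 275, 2864, 24.4, 316 and 1461 in the cKO libraries, with a log2 fold change of -2.82 (limma adjusted p = 0.139). The count tests gave H2-Ab1 -1.51 with edgeR (adjusted p = 0.366) and -1.50 with DESeq2 (0.351). For the class II genes H2-Aa and H2-Eb1, as for Cd74, controls 1 and 3 and cKO library 2 were the 3 highest. None of the 18 genes of antigen presentation passed limma's test, beside 7.48% of all genes. At an unadjusted limma p under 0.05 there was 1, beside 26.9% of all genes. Psme1, a proteasome activator subunit, was at -0.20 (limma adjusted p = 0.348).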
